A study of Mus musculus with 29 samples.

Results

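The wild-type (WT) side of the diet experiment was examined here on its own: how the gene expression of a normal mouse aortic arch differed between animals that ate freely and animals that were given less food. The 9 libraries used were the 5 from Ercc1 +/+ mice of 22 weeks on dietary restriction (DR; samples 007, 010, 017, 021 and 028) and 4 from Ercc1 +/+ mice of 22 weeks fed ad libitum (AL; samples 012, 018, 020 and 025), out of 29 libraries in the series. One more AL library, sample 003, was left out because it held 400410 counts, against 2660422 to 9616382 in the 9 others, and is used only in a check. All values are from RNA sequencing of the aortic arch of single animals, and samples are named by the number in their labels. Values per sample are normalised counts and follow that order of samples throughout.

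All animals were F1 hybrids of C57BL6J and FVB, individually housed and fed AIN93G pellets, and the WT animals were littermates of the progeroid mice of the same study. AL animals had free access to the pellets. In DR animals the daily ration was cut by 10% at 7 weeks of age and by a further 10% each week, to 30% less food from 9 weeks onward, with meals given shortly before the dark phase. The AL samples were 3 males (012, 020, 025) and 1 female (018), and the DR samples 3 males (007, 010, 028) and 2 females (017, 021), so that every estimate in females rests on 018 as the AL side. The other genotype, used only for comparison, was Ercc1Δ/- (1 truncated and 1 deleted allele of a DNA repair gene), with 4 AL and 5 DR samples at 22 weeks.

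Dietary restriction is the best known feeding regime that slows ageing in rodents, and restricted animals show lower circulating leptin and insulin, less body fat and milder age-related inflammation. The aortic arch holds smooth muscle cells in its media, fibroblasts and resident macrophages in its adventitia, a single layer of endothelium, and fat around the vessel. In bulk tissue, fewer cells of a type and less RNA per cell cannot be told apart.

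The libraries were aortic by their markers: the 26 contractile genes summed to 196833 to 224650 normalised counts in the AL samples and to 194957 to 250826 in the DR samples, on a scale of 3742812 counts a library. Female and male labels matched Xist and the Y-linked genes in all 9 samples. Library totals were 6486296 ± 2785209 (SD, n = 4) in AL and 4684725 ± 1650142 (SD, n = 5) in DR (two-sided exact permutation test, p = 0.27, smallest possible 0.0159), and the share of counts from mitochondrial genes was 3.08% ± 0.53 and 3.82% ± 1.11 (exact permutation p = 0.349). The 2 female DR samples stood apart: their white fat markers summed to 23438 and 19793, against 6098 to 11022 in the other 7 samples, and their mitochondrial shares were 4.94% and 5.12%, against 2.47% to 3.72%. Sample 018 stood apart among the AL samples in interferon-responsive genes, as given below, and sample 012 in clock genes. Sample 018 was also the only AL female, and the part of sex in its values was not tested. Ercc1 itself was 118 ± 8.92 normalised counts in WT AL and 118 ± 14.9 in WT DR, against 60.3 ± 7.86 in Ercc1Δ/- AL samples.

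Of 12353 genes tested, 161 differed between DR and AL in the WT aorta (1.3% of the genes tested), 118 lower (0.955%) and 43 higher (0.348%) on DR. A gene was called where the Benjamini-Hochberg adjusted p of edgeR's quasi-likelihood test, with sex as a covariate, was at most 0.05 and the change at least 1.2-fold. The lower genes had a median log2 fold change (DR over AL) of -0.81 and the higher ones of 0.7, against 0.01 over all genes tested. The change was more than 2-fold in 32 lower and 9 higher genes. The ranges of the 4 AL and 5 DR samples did not overlap for 112 of the 161 called genes, and did not overlap for 5.04% of all genes tested. The lower genes included all 6 tested genes of major histocompatibility complex (MHC) class II presentation, interferon-responsive GTPases, leptin, type I and type III collagen chains and chaperones of the endoplasmic reticulum (ER). The higher genes included galectin-3, the RNA-binding protein gene Celf4 and several genes of conjugation and oxidation of small molecules.

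**Figure D1:**
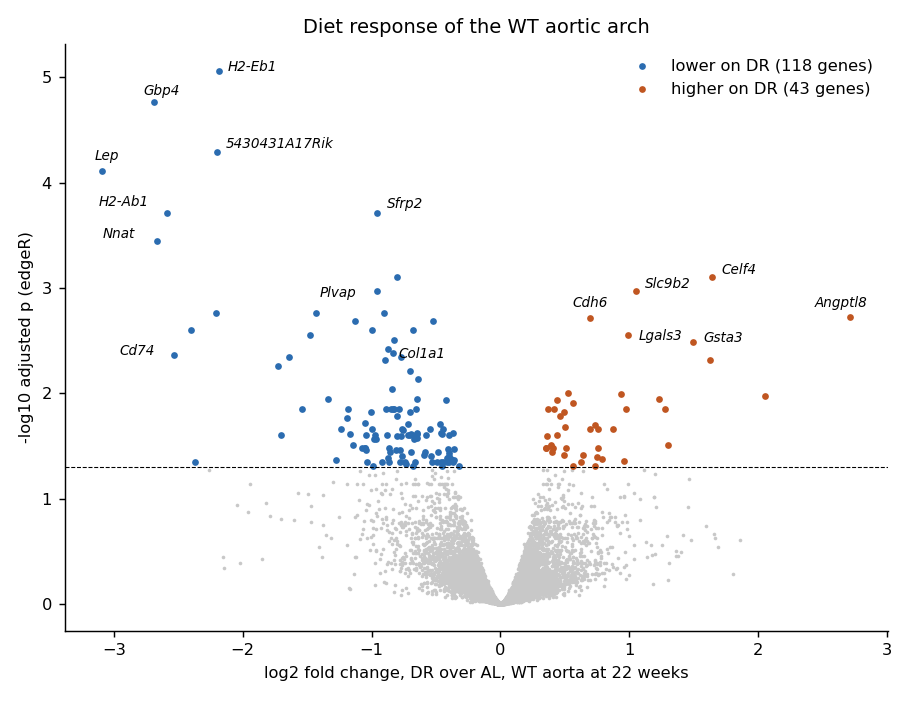
Log2 fold change (DR over AL, WT aorta at 22 weeks; x axis) against the -log10 adjusted p of edgeR (y axis) for 12353 genes; coloured points are the 118 genes called lower and the 43 called higher, and the dashed line is an adjusted p of 0.05. The class II genes H2-Eb1, H2-Ab1 and Cd74 and the hormone gene Lep lie far to the left, and Angptl8 farthest to the right.

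MHC class II molecules display peptides from engulfed proteins to helper T cells and are made by macrophages, dendritic cells and B cells and, under interferon-γ, by other cells. All 6 tested genes of the class II list were lower on DR, and 4 of them were still called without AL sample 018. The median log2 fold change of the 6 was -2.31, against 0.01 over all genes, and stayed between -2.62 and -2.05 under every alternative run other than females alone. H2-Eb1, the β chain of the I-E molecule (chr17:34504236-34535648, plus strand in GRCm39), had 50.0, 125, 41.5 and 54.0 in AL and 15.1, 7.49, 26.6, 24.5 and 7.51 in DR. Every DR sample was below every AL sample, and 018 was the highest (log2 fold change -2.18 ± 0.23 SE, edgeR adjusted p = 8.65e-06). For H2-Ab1, the β chain of I-A, they were 97.0, 309, 112 and 85.7 in AL and 32.3, 13.5, 44.0, 30.7 and 9.38 in DR (log2 fold change -2.59 ± 0.29 SE, edgeR adjusted p = 0.000195). H2-Aa, the α chain of I-A, had 110, 342, 129 and 121 in AL and 46.1, 8.99, 48.0, 50.3 and 16.9 in DR (log2 fold change -2.4 ± 0.33 SE, edgeR adjusted p = 0.00253). In both I-A genes the groups were apart and males 010 and 028 were the lowest. The invariant chain gene Cd74, whose product guides class II molecules through the cell, had 166, 562, 182 and 194 in AL and 62.6, 18.0, 74.6, 69.9 and 20.6 in DR (log2 fold change -2.53 ± 0.37 SE, edgeR adjusted p = 0.0043).

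H2-DMa and H2-DMb1 encode the DM molecule that loads the peptides, and both fell, from lower counts. For H2-DMa the values were 11.0, 48.8, 23.8 and 12.5 in AL and 6.88, 4.5, 7.33, 1.23 and 5.0 in DR (log2 fold change -2.21, edgeR adjusted p = 0.00173). H2-DMb1, named after its values were seen as the sixth called member, had 20.0, 44.6, 30.0 and 31.3 in AL and 20.6, 7.49, 12.0, 13.5 and 10.0 in DR (log2 fold change -1.34, edgeR adjusted p = 0.0113), with male DR sample 007 inside the AL range. These were also the 2 class II calls that ended without 018, at adjusted p = 0.0828 and 0.103, with log2 fold changes of -1.58 and -1.22. Of the 4 listed genes not tested for low counts, Ciita, the transactivator that class II transcription needs, had 7.0, 34.1, 8.82 and 7.82 in AL and 4.13, 0, 2.0, 2.45 and 0 in DR. In 8 of the 9 samples it was under 10 normalised counts, and no test was made of it. The summed class II level was 462, 1475, 528 and 509 in AL and 191, 61.4, 223, 193 and 70.7 in DR.

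Class II promoters are known for an X box and a Y box that lie a fixed distance apart and are bound by the RFX and NF-Y complexes. The promoters of H2-Eb1, H2-Aa and H2-DMb1, shown because class II genes fell together, held the letters GNAACT of the X box followed within 10 to 40 bases by TGATTGG of the Y box, on either strand. These letters and distances were chosen after the sequences were read. The pair occurred in 0.231% of the 32851 RefSeq promoter entries of GRCm38.p6, searched over the 250 bases before the start. In the stretches below, 5′ to 3′ on the gene's strand and placed in GRCm38.p6, capitals mark the 2 parts.
H2-Eb1 (chr17:34305756-34305832, plus strand): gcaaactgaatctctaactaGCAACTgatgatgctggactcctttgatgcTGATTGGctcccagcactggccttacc
H2-Aa (chr17:34287847-34287924, minus strand): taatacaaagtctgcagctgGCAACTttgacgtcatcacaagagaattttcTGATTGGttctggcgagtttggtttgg
H2-DMb1 (chr17:34153077-34153154, plus strand): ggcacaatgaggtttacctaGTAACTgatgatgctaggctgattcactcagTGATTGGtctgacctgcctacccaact
The 2 entries for H2-DMa did not hold the pair. H2-Ab1 and Cd74 were not searched. A match is a description of these letters and shows no binding.

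The guanylate-binding and immunity-related GTPases, which attack vacuoles of intracellular microbes, and the proteins that present peptides on MHC class I were grouped by symbol after their values were seen, so their counts are a description. Of the 12 GTPase genes tested, 6 were called, all lower, and of the 18 class I presentation genes 7 were, all lower. Without 018, 1 gene of each group was called, and their medians went from -0.93 to -0.48 and from -0.48 to -0.36. Gbp4 had 51.0, 227, 41.5 and 23.5 in AL and 8.95, 12.0, 24.0, 19.6 and 6.88 in DR (log2 fold change -2.69 ± 0.28 SE, edgeR adjusted p = 1.73e-05). Sample 018 was the highest of the 9 by a wide margin and one DR female lay inside the AL range. Without 018 the log2 fold change of Gbp4 was -1.9 (edgeR adjusted p = 0.00115) and in males alone -2.04 (adjusted p = 0.0184). Igtp had 20.0, 176, 15.9 and 20.7 in AL and 15.8, 10.5, 27.3, 29.5 and 9.38 in DR (log2 fold change -1.7, edgeR adjusted p = 0.0247). Here only 018 was above the DR range, and without it the log2 fold change was -0.66 (edgeR adjusted p = 0.519). Gbp5, Gbp7, Gbp8 and Irgm2, named after their values were seen, were called at log2 fold changes of -0.88, -0.86, -0.73 and -1.07, and none of the 4 without 018, where they were -0.55, -0.45, -0.62 and -0.51. The other 6 were not called, with estimates of -0.5 for Gbp2, -0.99 for Gbp3, -0.84 for Gbp9, -0.52 for Irgm1, -1.7 for Iigp1 and -1.08 for Ifi47 (edgeR adjusted p from 0.131 to 0.269). The GTPase genes come in families of near-identical copies, so the split of reads among them is uncertain.

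On the class I side, H2-Q4 had 163, 376, 219 and 181 in AL and 107, 100, 139, 115 and 87.6 in DR (log2 fold change -1.13 ± 0.18 SE, edgeR adjusted p = 0.00207) and kept its call without 018 (log2 fold change -0.88, edgeR adjusted p = 0.0138). Its groups did not overlap, though H2-Q4 belongs to a family of close copies. The immunoproteasome subunit Psmb8 had 32.0, 115, 59.1 and 36.0 in AL and 35.1, 21.0, 38.0, 44.2 and 20.0 in DR (log2 fold change -1.0, edgeR adjusted p = 0.0151). The AL range of Psmb8 held all but 2 DR samples, and without 018 its log2 fold change was -0.64 (adjusted p = 0.304). Uba7, outside these groups, which activates the ubiquitin-like protein ISG15, had 60.0, 123, 70.6 and 52.0 in AL and 30.3, 42.0, 47.3, 56.4 and 30.7 in DR (log2 fold change -1.0, edgeR adjusted p = 0.00253) and ended at an adjusted p of 0.0612 without 018. The peptide transporter Tap1, the subunit Psmb9, the class I light chain B2m, the class I gene H2-T23, the regulator Nlrc5 and, from outside the group, the regulator Rfx5, again named after their values were seen, were called at log2 fold changes of -1.17, -1.64, -0.45, -0.64, -1.73 and -0.85. Not one of these 6 was called without 018, although all 6 estimates stayed below 0 (-0.84, -1.26, -0.44, -0.53, -1.32 and -0.7). The main class I heavy chains H2-K1 and H2-D1 were not called, both at a log2 fold change of -0.42 (edgeR adjusted p = 0.0717). Sample 018 was the highest AL sample for all 15 genes given as called in these groups, Uba7 and Rfx5 included. The 15 were picked as calls of a fit that held 018, so this is a description.

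The wider list of interferon-induced genes was followed as well. Of its 29 tested members, 27 had estimates below 0 and 2 were called (Igtp and Psmb8), where 1.3% of all genes tested were called. Their median log2 fold change was -0.63 with 018 and -0.23 without it, with no member called. Summed over the list, the levels were 2517, 4082, 2631 and 2317 in AL and 2152, 2178, 3265, 2530 and 2019 in DR, so that 018 was highest and the female DR sample 017 next.

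Markers of immune cells were followed beside these genes, and most of those of lymphocytes were too scarce to test. Of 22 tested macrophage markers, 18 had estimates below 0, with a median of -0.38, and Cd74 and C1qb were called lower and Lgals3 higher. Their median was -0.56 without 018, with 4 called, and -0.67 in males alone. C1qb, a chain of the first complement component made by resident macrophages, had 130, 144, 177 and 124 in AL and 92.2, 91.4, 123, 94.5 and 67.6 in DR (log2 fold change -0.66 ± 0.15 SE, edgeR adjusted p = 0.0247). Its groups were close but did not overlap. The macrophage markers summed to 1941 to 2652 normalised counts in AL and 1308 to 2328 in DR, with 018 at 2324, inside the AL range. Cd74, also of the class II list, gave 562 of these counts in 018 and 166 to 194 in the other AL samples. The sum is therefore not separate from the class II result. Cd68, a lysosomal marker of macrophages, gave 31.0, 27.0, 38.8 and 26.6 in AL and 25.5, 19.5, 32.6, 24.5 and 16.9 in DR, overlapping between the groups (log2 fold change -0.38, edgeR adjusted p = 0.573). Of the 20 lymphocyte markers only Ighm and Ptprc held enough counts to test. Ighm, the heavy chain of IgM, had 22.0, 34.6, 50.3 and 21.1 in AL and 8.95, 5.99, 13.3, 16.0 and 1.88 in DR (log2 fold change -1.79, edgeR adjusted p = 0.146). Ptprc, the CD45 gene of all white blood cells, had 16.0, 13.8, 18.5 and 18.4 in AL and 11.0, 1.5, 11.3, 12.3 and 3.75 in DR (log2 fold change -1.04, edgeR adjusted p = 0.235). Neither was called. Counts of both were low, and neither pair of ranges overlapped, as was so for 5.04% of all genes tested. The T cell marker Cd3e was at 0 to 1.56 and the B cell marker Ms4a1 at 0 to 2.66 normalised counts. All 20 lymphocyte markers together summed to 47 to 81.2 in AL, with 018 at 63.1, and to 12.5 to 46.6 in DR, and their part in the class II result was not tested.

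Of the 9 genes called only when 018 was left out, the naming rule gave 5. Ccr2, the chemokine receptor of monocytes recruited from blood, had 7.0, 5.22, 10.6 and 10.6 in AL and 4.13, 3.0, 3.33, 3.68 and 1.88 in DR (log2 fold change -1.47, adjusted p = 0.166 with 018, and -2.36, edgeR adjusted p = 0.0171 without it). Retnla, a marker of alternatively activated macrophages, had 36.0, 63.6, 97.9 and 87.6 in AL and 34.4, 13.5, 38.0, 54.0 and 13.8 in DR (-1.47, adjusted p = 0.117, and -2.0, edgeR adjusted p = 0.0302). Pla2g2d, a secreted phospholipase, had 14.0, 15.2, 31.8 and 15.6 in AL and 7.57, 7.49, 10.7, 18.4 and 5.63 in DR (-1.07, adjusted p = 0.196, and -1.85, edgeR adjusted p = 0.0397). Counts of Ccr2 and Pla2g2d were low throughout. The other two were Podxl, a sialomucin of endothelium (log2 fold change without 018 -0.98, adjusted p = 0.0259), and the adhesion gene Cadm3 (-1.35, adjusted p = 0.0276).

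**Figure D2:**
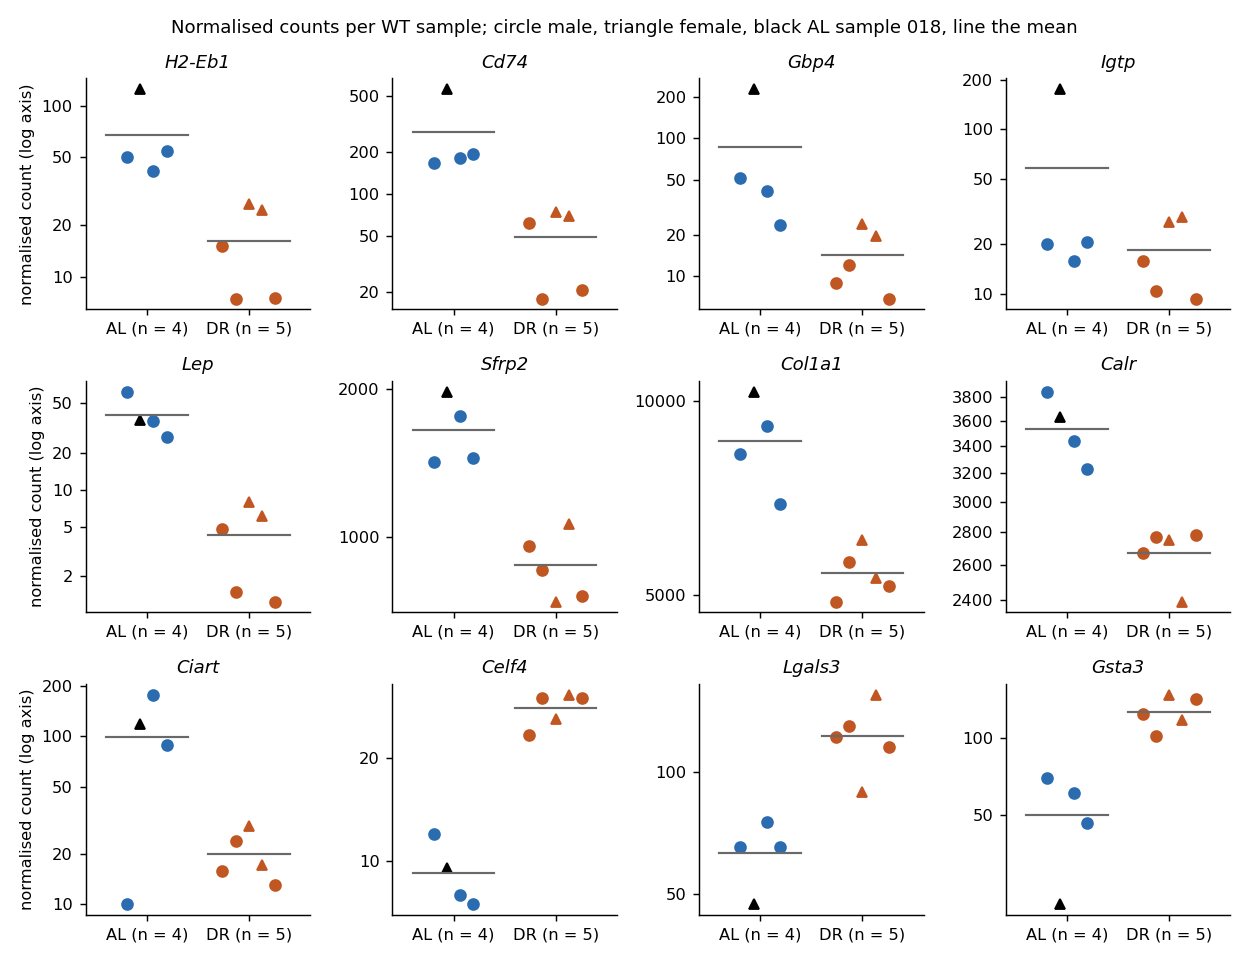
Normalised counts (y axis, log scale) of 12 genes in the 4 AL and 5 DR samples of WT aorta at 22 weeks; circles are males, triangles females, the black triangle AL sample 018 and the line the group mean. Sample 018 is the highest AL point for H2-Eb1, Cd74, Gbp4 and Igtp, and 012 is the low AL point for Ciart at 10.0.

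Among secreted signals of fat, leptin had the largest decrease of any gene called. Lep, the hormone by which fat cells report energy stores to the brain (chr6:29060216-29073877, plus strand in GRCm39), had 62.0, 37.0, 36.2 and 26.6 in AL and 4.82, 1.5, 7.99, 6.14 and 1.25 in DR. The lowest AL sample was more than 3 times the highest DR sample (log2 fold change -3.09 ± 0.39 SE, edgeR adjusted p = 7.77e-05), and without 018 the estimate was -3.47 (edgeR adjusted p = 0.000614) and in males alone -3.79 (edgeR adjusted p = 0.00234). Nnat, the imprinted neuronatin gene of nerve and fat, had 14.0, 12.8, 39.7 and 37.9 in AL and 4.82, 3.0, 4.0, 3.68 and 3.13 in DR (log2 fold change -2.67 ± 0.39 SE, edgeR adjusted p = 0.00036). All AL samples were again above all DR samples. Angptl8, a feeding-responsive inhibitor of lipoprotein lipase activity made in liver and fat, moved the other way, with 9.0, 3.79, 3.53 and 3.52 in AL and 11.7, 19.5, 56.6, 67.5 and 21.9 in DR (log2 fold change 2.72 ± 0.43 SE, edgeR adjusted p = 0.0019). The DR females were the highest for Angptl8, and without 018 its log2 fold change was 2.01 with an adjusted p of 0.0692.

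Lep and Nnat were the only called genes among 18 markers of white fat, of which 15 had estimates above 0 (median log2 fold change 0.24, and 0.02 without 018 and -0.32 in males alone). Adipoq, the adiponectin gene, had 206, 158, 124 and 90.0 in AL and 90.2, 141, 542, 360 and 114 in DR (log2 fold change 0.43, edgeR adjusted p = 0.732). The 2 DR females were highest for Adipoq while in the 3 DR males it was within the AL range. Lep itself was at 7.99 and 6.14 in these 2 females, below every AL sample. Brown fat markers summed to 1474 to 2265 in AL and to 1086, 2002, 5389, 4514 and 1972 in DR, with none of 16 tested called, and Ucp1, the uncoupling protein of brown fat, ranged from 30.3 to 1619 in DR and from 161 to 534 in AL.

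The summed levels of fat metabolism genes were highest in the same 2 females, and no gene of these lists was called. The lipogenesis list summed to 12139 to 28140 in AL, and to 12041 to 21067 in DR males against 64836 and 49276 in DR females (17 of 22 estimates above 0, median 0.33, and 0.14 without 018 and -0.08 in males alone). Scd2, a fatty acid desaturase of that list, went the other way without a call, with 304, 338, 370 and 330 in AL and 299, 262, 294, 283 and 281 in DR (log2 fold change -0.26, edgeR adjusted p = 0.276), every DR sample being below every AL sample. Fatty acid oxidation genes had 23 of 28 estimates above 0 (median 0.23, and 0 without 018 and -0.2 in males alone), with Acot1, an acyl-CoA thioesterase, at 35.0, 6.64, 7.94 and 13.3 in AL and 15.8, 33.0, 111, 57.7 and 28.8 in DR (log2 fold change 1.66, edgeR adjusted p = 0.215). Nuclear genes of oxidative phosphorylation had 32 of 33 estimates above 0 (median 0.19, and -0.01 without 018 and -0.14 in males alone). The mitochondrial genes had 12 of 12 (median 0.28, and 0.1 without 018 and -0.21 in males alone). The part of the fat content of the female samples in these medians was not tested.

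The tensile framework of the vessel wall is made of fibrils of type I and type III collagen, assembled after their propeptides are cut off. Genes of these fibrils were lower on DR. Col1a1 (chr11:94827050-94843868, plus strand in GRCm39) had 8269, 10341, 9133 and 6911 in AL and 4876, 5622, 6071, 5305 and 5152 in DR. The highest DR sample was below the lowest AL sample (log2 fold change -0.7 ± 0.13 SE, edgeR adjusted p = 0.00609), without 018 (log2 fold change -0.66, adjusted p = 0.0482) and in males alone (-0.64, adjusted p = 0.0184) as well. Col3a1 had 13078, 18167, 14237 and 11381 in AL and 8755, 8736, 9361, 7903 and 9357 in DR (log2 fold change -0.71 ± 0.15 SE, edgeR adjusted p = 0.0247). Its groups were apart too, with 018 the highest at 18167, and without 018 the estimate was -0.62 at an adjusted p of 0.143. For Col1a2, the partner chain of Col1a1, the counts were 17647, 19305, 18452 and 15523 in AL and 13474, 14393, 14113, 12506 and 13403 in DR (log2 fold change -0.4 ± 0.1 SE, edgeR adjusted p = 0.0448). Its groups were apart, but its call ended without 018 (log2 fold change -0.4, edgeR adjusted p = 0.144) and without 012 (-0.4, edgeR adjusted p = 0.0668). The call of Col1a2 was made in 3 of the 9 fits with 1 sample left out. These were 3 of the 8 tested fibrillar collagen genes, whose median log2 fold change was -0.25. The type V chains Col5a1 and Col5a2, the second chosen after its values were seen, were at -0.16 and -0.02 and were not called.

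Other matrix genes that fell were spread over several classes. Pcolce, which speeds the removal of the collagen propeptide, had 601, 673, 760 and 609 in AL and 502, 550, 543, 432 and 489 in DR (log2 fold change -0.41, edgeR adjusted p = 0.0448). Fbn1, the fibrillin-1 of elastic microfibrils, had 1074, 1555, 1369 and 1027 in AL and 944, 836, 856, 1030 and 920 in DR (log2 fold change -0.46, edgeR adjusted p = 0.0237), the lowest AL sample lying 3 counts under the highest DR sample. Tnxb, the tenascin-X of collagen fibrils, had 3576, 4210, 4113 and 3613 in AL and 2600, 3441, 3022, 2513 and 2639 in DR (log2 fold change -0.46, edgeR adjusted p = 0.0448). Ccn5, a matricellular inhibitor of smooth muscle growth, had 603, 527, 583 and 532 in AL and 381, 250, 235, 220 and 295 in DR (log2 fold change -0.98, edgeR adjusted p = 0.027). Of the 21 matrix proteases and inhibitors tested, 2 fell. Adamts8, which cuts proteoglycans, had 169, 303, 235 and 198 in AL and 153, 127, 121, 110 and 100 in DR (log2 fold change -0.91 ± 0.15 SE, edgeR adjusted p = 0.00173), and Htra1, a serine protease of the extracellular space, had 2979, 2900, 2888 and 2811 in AL and 2588, 2542, 1975, 1924 and 2056 in DR (log2 fold change -0.37, edgeR adjusted p = 0.0448). The calls of Adamts8 and Col1a1 held when any 1 of the 9 samples was left out, those of Fbn1, Tnxb, Ccn5, Pcolce and Htra1 did not, and without 018 these 5 had adjusted p from 0.0991 to 0.228. The other matrix lists held 0 to 4 calls each, where 1.3% of all genes tested were called. These were 0 of 17 non-fibrillar collagens (median -0.19), 1 of 17 elastic fibre genes (median -0.15) and 1 of 25 collagen processing genes (median -0.14). Of 21 matrix proteases and inhibitors 2 were called (median -0.2), and of 32 proteoglycan and matricellular genes 4, 2 in each direction (median -0.15). Col8a1, the network collagen of activated smooth muscle, was not called (log2 fold change -0.56, edgeR adjusted p = 0.0717).

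The 2 matricellular genes that rose encode secreted calcium-binding proteins. Smoc1 had 4317, 3424, 3243 and 3646 in AL and 4984, 5400, 4251, 4771 and 4714 in DR (log2 fold change 0.42, edgeR adjusted p = 0.014), and Sparcl1, hevin, had 6649, 5372, 7337 and 6881 in AL and 10036, 9190, 7388, 7292 and 9241 in DR (log2 fold change 0.44, edgeR adjusted p = 0.0116). In both genes the AL and DR ranges overlapped slightly. Both calls ended without 018 (edgeR adjusted p = 0.0635 and 0.0795), while the log2 fold changes stayed at 0.42 and 0.41.

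Collagen chains fold in the ER with the help of chaperones, and 18 of the 21 tested ER chaperone and stress genes had estimates below 0, with a median log2 fold change of -0.24. Of these, 3 were called. Calr, the lectin chaperone calreticulin, had 3844, 3633, 3439 and 3228 in AL and 2670, 2771, 2752, 2393 and 2780 in DR (log2 fold change -0.4 ± 0.09 SE, edgeR adjusted p = 0.0247). Hsp90b1, the ER paralog of HSP90, had 3074, 2393, 2164 and 2212 in AL and 2136, 1713, 1836, 1711 and 1869 in DR (log2 fold change -0.4 ± 0.1 SE, edgeR adjusted p = 0.0339). For Pdia3, a disulfide isomerase that works with calreticulin, the counts were 2287, 2096, 2008 and 1968 in AL and 1871, 1580, 1639, 1590 and 1653 in DR (log2 fold change -0.32 ± 0.08 SE, edgeR adjusted p = 0.0487). In all 3 genes every DR sample was below every AL sample, by small margins for Hsp90b1 and Pdia3. None of the 3 was called without 018 (log2 fold change -0.36, -0.42 and -0.32), nor without 012 (-0.36, -0.29 and -0.28, adjusted p = 0.0524, 0.106 and 0.106), where the median of the 21 went from -0.24 to -0.12. The list summed to 25394 in 012 and to 19959 to 20579 in the 3 other AL samples, against 15725 to 19145 in DR. Hspa5, the central chaperone BiP, was not called (log2 fold change -0.24, edgeR adjusted p = 0.471) and was highest in AL sample 012. Of the genes controlled by ATF4, the factor of the amino acid response, 1 of 18 was called: Aldh18a1, which starts proline synthesis, had 105, 142, 112 and 97.0 in AL and 61.3, 74.9, 67.3, 56.4 and 90.1 in DR (log2 fold change -0.7, edgeR adjusted p = 0.0151, and 0.162 without 018).

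The promoters of ER chaperones are known for the ER stress element, CCAAT and CCACG separated by 9 bases, which was searched on both strands in the promoters of the 3 called genes, a choice made after their values were seen. Calr held it once, on the reverse strand, and Hsp90b1 held it in 2 places, while it occurred in 0.113% of the 32851 promoter entries. Capitals mark the 2 parts in the stretches below, which run 5′ to 3′ on the gene's strand in GRCm38.p6.
Calr (chr8:84847055-84847113, minus strand): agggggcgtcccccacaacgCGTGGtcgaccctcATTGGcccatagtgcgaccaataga
Hsp90b1 (chr10:86705513-86705676, minus strand): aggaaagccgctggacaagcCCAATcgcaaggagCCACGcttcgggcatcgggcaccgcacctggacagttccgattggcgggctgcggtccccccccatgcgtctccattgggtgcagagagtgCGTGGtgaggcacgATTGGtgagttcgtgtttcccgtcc
The entry for Pdia3 did not hold the element.

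Several called genes act in signalling to fibroblasts, endothelium or smooth muscle. Sfrp2, a secreted modulator of Wnt signals and a marker of adventitial fibroblasts, had 1419, 1973, 1762 and 1449 in AL and 957, 856, 738, 1061 and 759 in DR (log2 fold change -0.95 ± 0.12 SE, edgeR adjusted p = 0.000195). Its groups were well apart, it was called in every fit that left out 1 sample, and in males alone the estimate was -0.85 (edgeR adjusted p = 0.00515). Ly6a, the Sca-1 antigen of adventitial progenitors, had 302, 423, 336 and 245 in AL and 195, 171, 235, 217 and 161 in DR (log2 fold change -0.81 ± 0.12 SE, edgeR adjusted p = 0.000788). Plvap, the diaphragm protein of endothelial fenestrae and caveolae, had 118, 207, 139 and 120 in AL and 80.5, 88.4, 76.6, 101 and 55.7 in DR (log2 fold change -0.96 ± 0.15 SE, edgeR adjusted p = 0.00108). Another 2 genes of Wnt signalling, chosen after their values were seen, also fell: Dact2 had 31.0, 62.6, 67.0 and 38.7 in AL and 19.3, 16.5, 23.3, 22.1 and 13.1 in DR (log2 fold change -1.48, edgeR adjusted p = 0.0028), and Frzb, another secreted frizzled-related protein, had 322, 506, 339 and 456 in AL and 325, 235, 271, 258 and 263 in DR (log2 fold change -0.6, edgeR adjusted p = 0.0383). Dact2 was called in all 9 fits with 1 sample left out and Frzb in 3, and without 018 Frzb was at -0.48 (adjusted p = 0.217). Fcrl2, an Fc receptor-like gene, had 42.0, 38.9, 38.8 and 33.6 in AL and 16.5, 15.0, 15.3, 17.2 and 10.6 in DR (log2 fold change -1.43 ± 0.23 SE, edgeR adjusted p = 0.00173). For 5430431A17Rik, a gene with no assigned role, the counts were 130, 66.4, 71.4 and 76.3 in AL and 15.1, 37.5, 15.3, 19.6 and 11.9 in DR (log2 fold change -2.2 ± 0.26 SE, edgeR adjusted p = 5.09e-05). Both of these were called in males alone, at log2 fold changes of -1.43 and -2.29.

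Smaller decreases were seen in Pcsk5, a proprotein convertase (387, 540, 452 and 417 in AL and 335, 249, 306, 241 and 280 in DR; log2 fold change -0.68, edgeR adjusted p = 0.00253), and in Ergic1, a protein of the ER-to-Golgi compartment (746, 646, 746 and 790 in AL and 591, 534, 457, 437 and 496 in DR; log2 fold change -0.52, edgeR adjusted p = 0.00207). Both ranges were apart, and Pcsk5 and Ergic1 were called in all 9 fits with 1 sample left out. Itih4, an inhibitor family member, gave 1101, 1778, 984 and 1045 in AL and 677, 718, 869, 869 and 555 in DR (log2 fold change -0.77, edgeR adjusted p = 0.00451). Cpxm2, a carboxypeptidase-like protein, gave 384, 536, 495 and 443 in AL and 335, 343, 326, 247 and 256 in DR (log2 fold change -0.64, edgeR adjusted p = 0.00734, and 0.0612 without 018). Calls that ended without 018 included Ncald, a neuronal calcium sensor (log2 fold change -0.83, edgeR adjusted p = 0.00313, and 0.0631 without 018), and Syt15, a synaptotagmin (log2 fold change -0.83, edgeR adjusted p = 0.00417, and 0.0561 without 018). Of the proliferation list, 15 of 33 genes held enough counts to test, and the one called was Ccnd1, cyclin D1, with 88.0, 74.9, 115 and 79.4 in AL and 59.2, 46.5, 56.6, 40.5 and 44.4 in DR (log2 fold change -0.81, edgeR adjusted p = 0.0348). The related Ccnd2, chosen after its values were seen, had 794, 979, 994 and 983 in AL and 768, 710, 641, 591 and 642 in DR (log2 fold change -0.49, edgeR adjusted p = 0.0448). The groups did not overlap for either cyclin, and each was called in 2 of the 9 fits with 1 sample left out (Ccnd2 at an adjusted p of 0.162 without 018, Ccnd1 at 0.0502 without 012).

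The circadian clock is a loop in which BMAL1 and CLOCK switch on the genes of their own repressors and of output factors, and it runs in the vessel wall as in other tissues. In the clock list 3 of 22 genes were called, all lower on DR, with 1 AL sample unlike the other 3. Ciart, a repressor of the loop, had 10.0, 119, 177 and 88.8 in AL and 15.8, 24.0, 29.3, 17.2 and 13.1 in DR (log2 fold change -2.37 ± 0.53 SE, edgeR adjusted p = 0.0448). Sample 012 was below every DR sample for Ciart and the 3 other AL samples above them all. Bhlhe41, another repressor, had 109, 335, 304 and 267 in AL and 128, 132, 121, 119 and 98.2 in DR (log2 fold change -1.14 ± 0.24 SE, edgeR adjusted p = 0.0312), with 012 inside the DR range. Hlf, an output factor, had 295, 501, 616 and 478 in AL and 328, 279, 314, 276 and 255 in DR (log2 fold change -0.74 ± 0.17 SE, edgeR adjusted p = 0.0448), again with 012 inside it.

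Dbp, Nr1d1 and Bmal1, chosen after their values were seen, followed the same split. Dbp, an output factor, had 173, 1808, 1661 and 1172 in AL and 286, 418, 430, 152 and 196 in DR (log2 fold change -2.05, edgeR adjusted p = 0.115). Nr1d1, the REV-ERBα repressor of Bmal1, had 113, 2067, 1410 and 1093 in AL and 288, 459, 340, 269 and 167 in DR (log2 fold change -1.96, edgeR adjusted p = 0.132). Bmal1, in opposite phase, had 20.0, 2.37, 1.76 and 4.3 in AL and 15.1, 7.49, 10.7, 31.9 and 16.9 in DR (log2 fold change 1.48, edgeR adjusted p = 0.248). None of these 3 was called with all 4 AL samples. Without 012, 9 of the 22 clock genes were called, among them Ciart (log2 fold change -2.67, edgeR adjusted p = 3.35e-05), Bhlhe41 (-1.36, 3.35e-05), Hlf (-0.89, 0.00171), Nr1d1 (-2.33, 0.00803), Dbp (-2.4, 0.014) and Bmal1 (2.33, 0.019), and without 018 none was. Per2, a core repressor, did not follow this pattern, with 1278, 1166, 1387 and 1599 in AL and 1299, 1284, 1380, 1128 and 1502 in DR (log2 fold change -0.02, edgeR adjusted p = 0.976). The time of day at which each animal was killed was not used here, and its part in these values was not tested.

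BMAL1 and CLOCK bind the E-box CACGTG, which reads the same on both strands and was searched for after the values were seen. Of the 3 called clock genes, the 250 bases before the start held 3 E-boxes in Ciart, 1 in Bhlhe41 and 0 in Hlf, against at least 1 in 6.02% of the 32851 promoter entries. The stretches with E-boxes in capitals, 5′ to 3′ on the gene's strand in GRCm38.p6, are these.
Bhlhe41 (chr6:145865548-145865593, minus strand): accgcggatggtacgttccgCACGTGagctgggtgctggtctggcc
Ciart (chr3:95882247-95882364, minus strand): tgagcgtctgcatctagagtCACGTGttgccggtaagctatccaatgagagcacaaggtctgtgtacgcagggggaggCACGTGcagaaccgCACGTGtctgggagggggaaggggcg

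Among the genes that rose, Celf4, an RNA-binding regulator of splicing best known in neurons, had 12.0, 9.49, 7.94 and 7.43 in AL and 23.4, 30.0, 26.0, 30.7 and 30.0 in DR. The lowest DR sample was well above the highest AL sample, from low counts (log2 fold change 1.64 ± 0.25 SE, edgeR adjusted p = 0.000788). Slc9b2, a sodium-proton exchanger, had 54.0, 28.9, 34.4 and 43.8 in AL and 86.7, 65.9, 76.0, 77.3 and 85.1 in DR (log2 fold change 1.05 ± 0.16 SE, edgeR adjusted p = 0.00108). Cdh6, a cadherin of cell-cell contacts, had 255, 232, 200 and 251 in AL and 442, 345, 364, 319 and 406 in DR (log2 fold change 0.7 ± 0.11 SE, edgeR adjusted p = 0.00193). Lgals3, galectin-3, a carbohydrate-binding protein abundant in macrophages (chr14:47605208-47623624, plus strand in GRCm39), had 65.0, 47.0, 75.0 and 65.3 in AL and 122, 130, 89.3, 155 and 115 in DR (log2 fold change 0.99 ± 0.17 SE, edgeR adjusted p = 0.0028). The groups did not overlap for any of these 4, and Celf4, Cdh6 and Lgals3 were also called in males alone.

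Of the higher genes described here, 4 encode enzymes that oxidise or conjugate small molecules, a group put together after the values were seen. Gsta3, a glutathione S-transferase, had 70.0, 22.3, 60.9 and 46.5 in AL and 124, 102, 148, 118 and 143 in DR (log2 fold change 1.49 ± 0.23 SE, edgeR adjusted p = 0.00322). Its lowest value was that of 018, and without 018 the log2 fold change was 1.18 (edgeR adjusted p = 0.00398). It was the only one of 24 tested NRF2 target genes to be called. Fmo2, a flavin-containing monooxygenase, had 8464, 5561, 5706 and 6949 in AL and 9486, 10199, 9407, 8633 and 10067 in DR (log2 fold change 0.56, edgeR adjusted p = 0.0124). Of the sulfotransferases, Sult5a1 had 51.0, 27.0, 57.3 and 51.2 in AL and 67.5, 124, 82.6, 73.6 and 89.5 in DR (log2 fold change 0.97, edgeR adjusted p = 0.014) and Sult1a1 157, 142, 178 and 185 in AL and 248, 292, 258, 308 and 181 in DR (log2 fold change 0.63, edgeR adjusted p = 0.0448). Sult1a1 was outside the naming rule, and 018 was the lowest AL sample for all 4 enzymes. Without 018 only Gsta3 of the 4 was called, the adjusted p of the others being from 0.0795 to 0.247.

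The other higher genes named by the rule were Csrp2, a LIM protein of smooth muscle (4644, 3755, 3909 and 4067 in AL and 5894, 6265, 5249, 5406 and 5897 in DR; log2 fold change 0.53, edgeR adjusted p = 0.00999), Slc24a4, a sodium-calcium exchanger (14.0, 4.27, 7.06 and 12.5 in AL and 22.0, 30.0, 20.0, 34.4 and 36.3 in DR; log2 fold change 1.63, edgeR adjusted p = 0.00485), and Avil, advillin of the villin family (22.0, 19.0, 16.8 and 21.1 in AL and 35.1, 36.0, 41.3, 30.7 and 42.5 in DR; log2 fold change 0.93, edgeR adjusted p = 0.0102). Jaml, an adhesion molecule of leukocytes, had 3.0, 1.9, 2.65 and 4.3 in AL and 9.64, 18.0, 12.7, 13.5 and 13.1 in DR (log2 fold change 2.05, edgeR adjusted p = 0.0106), and Folh1, a glutamate carboxypeptidase, 18.0, 16.1, 13.2 and 11.0 in AL and 33.0, 31.5, 31.3, 60.1 and 23.1 in DR (log2 fold change 1.23, edgeR adjusted p = 0.0113). Fetub, fetuin-B, had 11.0, 8.54, 12.3 and 13.7 in AL and 24.8, 25.5, 24.7, 29.5 and 28.8 in DR (log2 fold change 1.27, edgeR adjusted p = 0.014), and Dpep1, a membrane dipeptidase found on fibroblasts, 397, 167, 450 and 333 in AL and 544, 721, 476, 528 and 535 in DR (log2 fold change 0.87, edgeR adjusted p = 0.0217). All DR samples were above all AL samples for these 7 genes. Csrp2 was the one of the 7 that was called without 018 (log2 fold change 0.56, adjusted p = 0.0345).

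The contractile programme of the smooth muscle gave no call among 25 tested genes, their median log2 fold change being 0.04, in a range from -0.41 to 0.4. Kcnmb1, the β subunit of the large-conductance potassium channel, and Tpm2, β-tropomyosin, had its smallest p-values (log2 fold change -0.23, adjusted p = 0.197, and 0.27, adjusted p = 0.202). No gene was called in the lists for receptors and enzymes of vessel tone (21 tested, median -0.02), p53 targets (25, -0.03), glucocorticoid and fasting response (24, -0.01), insulin and IGF signalling (21, 0.07), cholesterol synthesis (23, -0.16), heat- and cold-induced proteins (20, 0.0), autophagy and lysosomes (25, -0.03), or acute phase and complement proteins (16, 0.07, which turned to -0.22 without 018). Mt1, a metallothionein of the fasting list, had its smallest p at a log2 fold change of 0.57 (adjusted p = 0.17). Endothelial markers had a median of -0.25, and -0.38 without 018, with 0 of 22 called, Egfl7 being nearest to the threshold (-0.53, adjusted p = 0.0534).

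The ribosomal protein and immediate early lists had no call either. All 38 ribosomal protein genes had estimates at or above 0, with a median log2 fold change of 0.16 against 0.01 for all genes, and between 0.12 and 0.17 under every alternative other than females alone. Their sums were 40743, 40095, 41271 and 41499 in AL and 45857, 45448, 45234, 45082 and 45612 in DR, ranges that did not overlap, while no single gene passed the test. Rplp0, of the ribosomal stalk, had the smallest p (log2 fold change 0.26, adjusted p = 0.141). Of 23 immediate early genes, the first to respond to stimulation or tissue handling, 20 had estimates below 0 (median -0.39). Their sums were 5743, 9148, 11787 and 6664 in AL and 6347, 6647, 7710, 6429 and 6626 in DR, so that AL samples 018 and 020 were highest and 012 was below all DR samples.

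Cell types that border the arch were followed through their own lists. Cardiac muscle markers summed to 592 to 1217 in AL and 566 to 976 in DR, skeletal muscle markers to 44.6 to 80.0 and 40.6 to 69.9, nerve and Schwann cell markers to 1435 to 1602 and 1421 to 1589, mesothelial markers to 102 to 806 and 210 to 588, and erythroid markers to 155 to 1950 and 120 to 902. No gene of these 5 lists was called. Sample 018 had the highest erythroid sum. The fibroblast markers summed to 29281 to 35852 in AL and 28805 to 35833 in DR, with 2 of 16 called, Ly6a lower and Dpep1 higher.

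**Figure D3:**
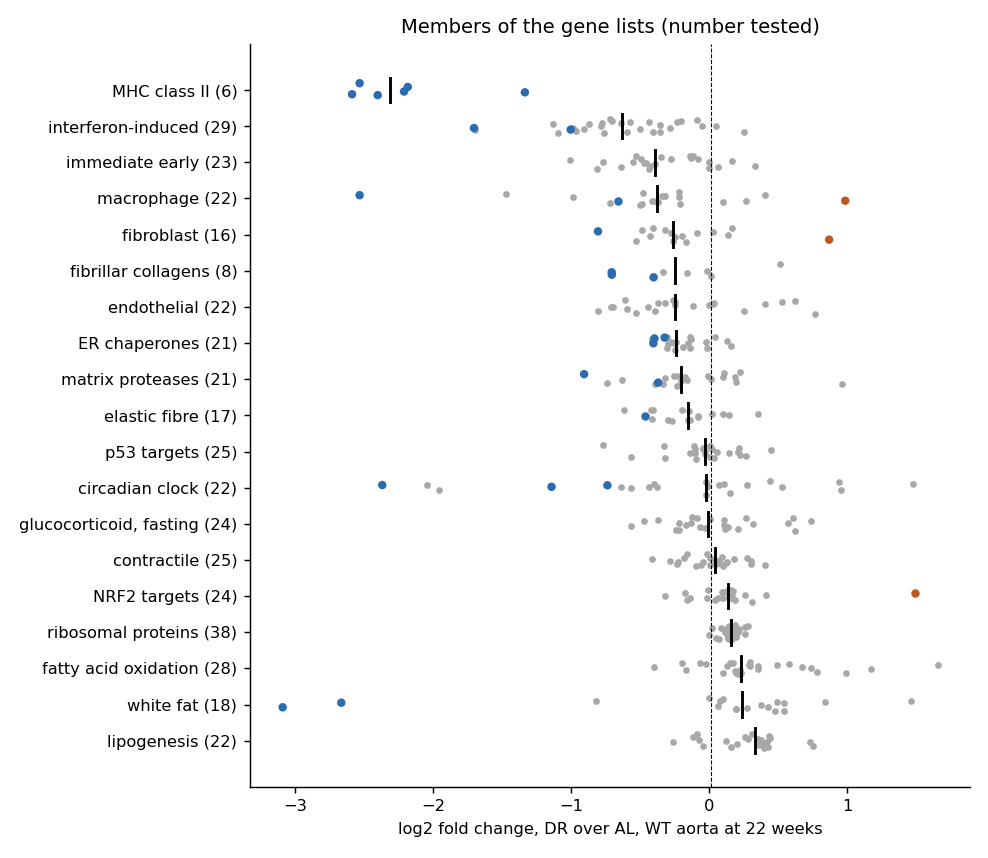
Log2 fold change (DR over AL, WT aorta at 22 weeks; x axis) of each tested member of 19 gene lists (rows, with the number tested), ordered by median; blue and orange points are genes called lower and higher, grey points are not called, bars are medians and the dashed line is the median of all genes, 0.01. The 6 class II genes stand apart at a median of -2.31, while 38 ribosomal protein genes form a narrow group around 0.16 with none called.

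Sample 018, the only female on the AL side, decided many calls. With it left out, 46 genes were called (0.372% of the genes tested), 37 lower and 9 higher. Of the 161 genes, 37 were called in both fits, and the estimates of all 161 had the same sign. The fits share all other samples, so a kept sign was likely in advance. The median size of their log2 fold changes went from 0.77 to 0.67, and the fold change moved by more than 1.5-fold in 4 genes, Gbp4, H2-DMa, Angptl8 and Igtp. Sample 018 was the highest AL sample for 79 of the 118 lower genes and the lowest AL sample for 26 of the 43 higher genes. The same share over all genes tested is not given, so these counts are a description. The genes that kept their call included H2-Eb1, H2-Ab1, H2-Aa, Cd74, Gbp4, Lep, Nnat, Sfrp2, Ly6a, Plvap, Fcrl2, Adamts8, Col1a1 and C1qb on the lower side and Celf4, Slc9b2, Cdh6, Lgals3, Gsta3 and Csrp2 on the higher side. In the sex term of the main fit, 18 of the 161 genes also differed by sex. Gbp4 was at -1.87 (male minus female log2, edgeR adjusted p = 4.63e-05), H2-Eb1 at -1.02 (0.00197) and Nlrc5 at -1.49 (0.00199). Gbp5 at -0.49 (0.114), Tap1 at -0.46 (0.295) and Gbp8 at 0.1 (0.871) did not differ.

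**Figure D4:**
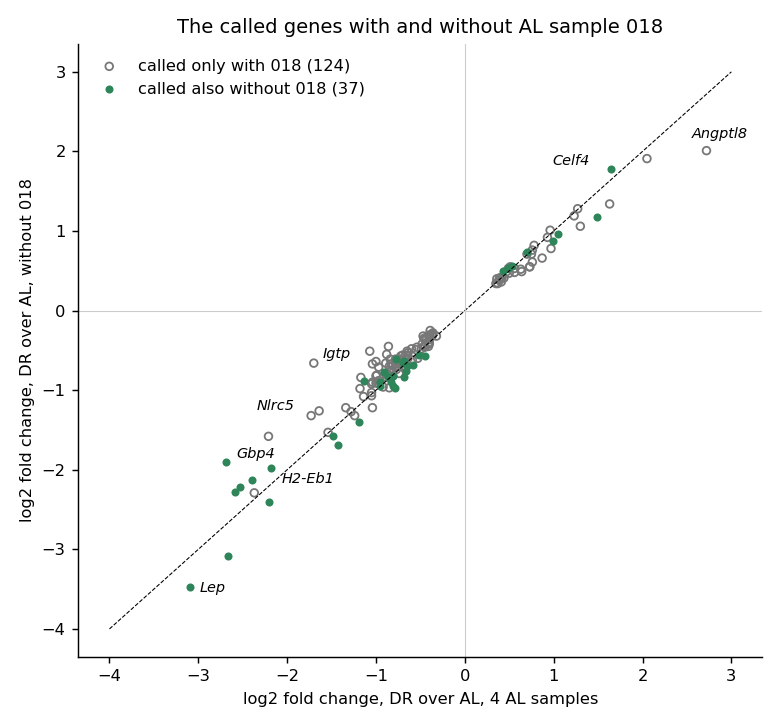
Log2 fold change (DR over AL) of the 161 called genes in WT aorta with the 4 AL samples (x axis) and with sample 018 left out (y axis); filled points are the 37 genes called in both fits and open points the 124 called only with 018, and the dashed line is equality. All 161 keep their sign, and Igtp and Gbp4 lie well above the line.

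With the males alone (3 AL and 3 DR in WT), 17 genes were called (0.138%), 15 of them among the 161, and all 161 again had the same sign. These males were among the samples in which the 161 were called, so the kept sign is no separate evidence. The Ercc1Δ/- males stayed in that fit and entered its estimate of the spread. Leaving out 1 library changed the count of calls from 161 to between 46 (without 018) and 204 (without 012). It fell by more than 1.5-fold also without AL sample 020 (58 calls) and without DR samples 017 (67), 021 (90) and 028 (75).

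In Ercc1Δ/- aorta at 22 weeks the same diet contrast, on other animals, gave 203 called genes (1.64% of the genes tested). Of these, 27 were among the 161 of the WT, which is 16.8% of the WT calls and 13.3% of the Ercc1Δ/- calls, and 26 of the 27 had the same sign. The genes of smallest p in WT that were called in both genotypes included H2-Eb1 (log2 fold change -1.7 in Ercc1Δ/-, edgeR adjusted p = 0.00128), H2-Ab1 (-1.7, 0.0125), H2-Aa (-1.56, 0.0498), Fcrl2 (-2.29, 0.000137), Ergic1 (-0.46, 0.0123), Slc24a4 (1.91, 0.0244), Avil (0.99, 0.0352), Itih4 (-0.6, 0.0278) and Cpxm2 (-0.83, 0.00581). Lep was estimated at -3.51 in Ercc1Δ/- and was not called there (edgeR adjusted p = 0.188). Of the 118 genes lower in WT, 96 had estimates below 0 in Ercc1Δ/- (median -0.3), against 50.0% of all genes tested, and of the 43 higher, 35 had estimates above 0 (median 0.31).

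A difference of the diet effect between genotypes was tested by the interaction term of the same fit and was called at an adjusted p of at most 0.05 in 12 genes (0.0971%), 7 of them among the WT calls. Lgals3 rose in WT and fell in Ercc1Δ/- (log2 fold change 0.99 against -0.85, edgeR adjusted p of the interaction = 0.000651), from 230 ± 45.9 (SD, n = 4) to 130 ± 33.7 (SD, n = 5) normalised counts in Ercc1Δ/-. The gene called in both genotypes with opposite signs was Lgals3. Spp1, osteopontin, had 4.0, 7.11, 7.06 and 2.35 in AL and 11.0, 12.0, 5.33, 7.36 and 12.5 in DR in WT, where it was not called (log2 fold change 0.97, edgeR adjusted p = 0.321), and fell by 2.9 on the log2 scale in Ercc1Δ/- (adjusted p of the interaction = 0.000651). Plvap fell in WT and was estimated at 0.45 in Ercc1Δ/- (interaction adjusted p = 0.00918), and Gm830 fell in WT and was at 0.75 in Ercc1Δ/- (interaction adjusted p = 0.0332). Gbp4, Nlrc5 and Col6a6 fell in WT and were at 0.01, 0.83 and 0.61 in Ercc1Δ/- (interaction adjusted p = 0.0374, 0.0484 and 0.0343), with the WT calls of Gm830, Nlrc5 and Col6a6 ending without 018 (0.146, 0.215 and 0.11), and Celf4 rose in WT and was at -0.01 (0.0446). Timp1, a metalloprotease inhibitor, and Mgp, the matrix Gla protein, were at 0.2 and 0.0 in WT and fell in Ercc1Δ/- (interaction adjusted p = 0.0343 for both). The count of 12 fell to 3 without 018 or without DR sample 021, to 4 without 017 and to 6 without 020.

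**Figure D5:**
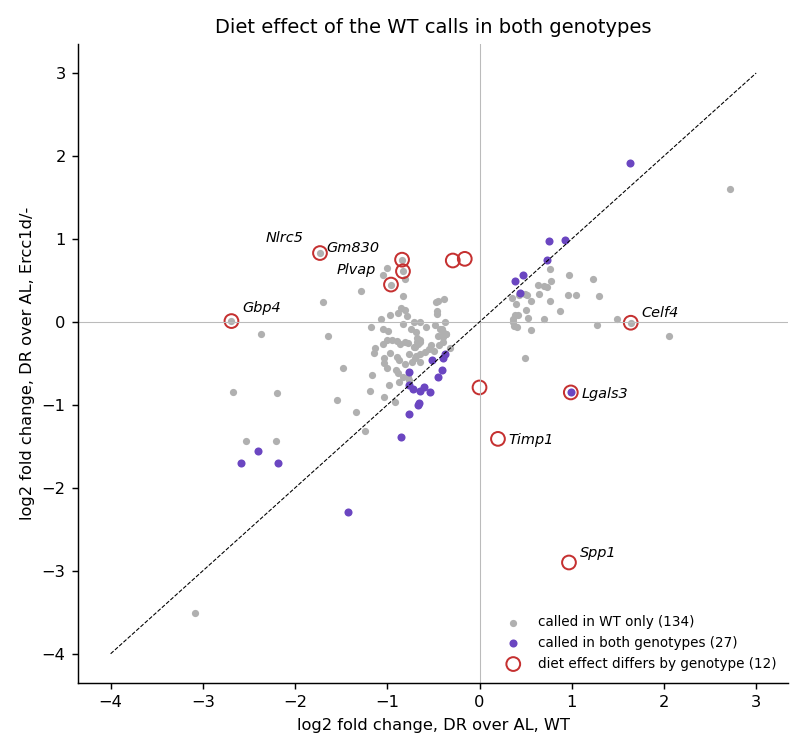
Log2 fold change (DR over AL) in WT (x axis) and in Ercc1Δ/- (y axis) aorta at 22 weeks for the 161 genes called in WT (grey and purple points); purple points are the 27 called in both genotypes, red circles the 12 genes with an interaction, and the dashed line is equality. Lgals3 and Spp1 lie at the lower right, with estimates above 0 in WT and below 0 in Ercc1Δ/-, and Spp1 was not called in WT.

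The genes that the study itself singled out came from comparisons that involved Ercc1Δ/- aorta, not from the diet contrast in WT. They were chosen on samples of this series and are therefore no independent evidence. In the diet contrast of Ercc1Δ/-, 8 of the 17 tested were called (median log2 fold change -0.36). The diet contrast in WT gave 1 call among the 17, Lgals3 (median -0.02), and the values that follow are from WT. Gpx1, Srxn1 and Txnrd1, of antioxidant defence, were at log2 fold changes of 0.17, -0.01 and -0.02, and Irf7 and Irf9, transcription factors of interferon signalling, at -0.77 and -0.09. Mmp3 and Mmp17, matrix metalloproteases, were at -0.01 and -0.32, the inhibitors Timp1 and Timp4 at 0.2 and 0.96, and the adhesion molecule Vcam1 at -0.41. Jun was at -0.46, Srf, the serum response factor of contractile genes, at -0.06, and Cdkn1a, the p21 gene, at 0.06. None of these 13 was called (adjusted p from 0.0944 to 0.992). Mmp12 was not tested, at 0 to 2.35 normalised counts in AL and 0 to 1.23 in DR.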

How the data were processed

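RNA of the aortic arch was sequenced from single mice. The authors deposited raw counts per gene: per the labels and the study's methods, reads were demultiplexed with bcl2fastq 2.20, trimmed with fastp, aligned to GRCm39 with STAR 2.7.10a, deduplicated by molecular identifier with UMI-tools 1.1.2 and counted with HTSeq 2.0.2 over the whole gene body, introns included. The strand setting of the counting is not given in the sources used here, so reads of overlapping genes are uncertain. The table held 56748 genes and 5 lines of unassigned reads, which were left out, and 56017 gene IDs were paired with a symbol through GENCODE release M39.

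The 12353 genes whose count exceeded 10 in over 10 of 28 samples were tested with edgeR 4.0.16 in R 4.3.3: TMM normalisation, robust quasi-likelihood F test, group and sex as terms, 18 samples of 22 weeks, and Benjamini-Hochberg adjustment over all genes. A call required an adjusted p of at most 0.05 and a 1.2-fold change, the interaction only the former. Every adjusted p printed is from this test unless DESeq2 (1.42.0) is named. Each SE is the size of the log2 fold change divided by the square root of the F statistic of this test. Normalised counts were scaled to 3742812 counts a library. Totals of the 9 libraries were 2660422 to 9616382, which limits genes of a few counts. Samples of a group differed beyond sampling noise (chi-square over its degrees of freedom 3.72 to 22.9), so each was counted as 1 replicate. The edgeR p-values set each difference against the spread between animals within groups. That spread is shared over all groups of 22 weeks, Ercc1Δ/- included. The test was checked on simulated counts and called slightly more unchanged genes than an adjusted p limit of 0.05 should give.

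The text names the 15 calls of smallest p in each direction, up to 4 calls of each gene list or its 2 members of smallest p where the list had none, genes the study singled out, calls that ended or appeared without 018, and genes of the interaction or of both genotypes. The comparison, the gene lists and the tests were chosen with earlier results of these data known. Promoter sequences are from RefSeq, GRCm38.p6. Values for the mean library total and mitochondrial share were compared by exact permutation test with Python 3.11.15 and scipy 1.17.1. Alternatives were another tool, scaling, filter and set of samples, and leaving out each library. A few results are not reported here.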

Additional observations from a re-analysis of the deposited data

Results flagged for a closer look

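Among 318 groups of values tested for 1 sample far from the rest of its group, 30 held such a sample. The test flags about 1 in 20 groups by chance, but that share is no fair reference here. Some of the genes were chosen after their values were seen or for their dependence on 018. Some enter both singly and in a list sum, and some, such as Cd3e, lie near 0. AL sample 018 stood apart as the highest of its group, in normalised counts, at 125 for H2-Eb1 (others 41.5 to 54), 227 for Gbp4 (others 23.5 to 51), 309 for H2-Ab1 (others 85.7 to 112), 562 for Cd74 (others 166 to 194), 342 for H2-Aa (others 110 to 129), 176 for Igtp (others 15.9 to 20.7), 174 for Irf9 (others 116 to 123), 1778 for Itih4 (others 984 to 1101), 34.1 for Ciita (others 7.0 to 8.82), 175 for Irgm2 (others 45.9 to 48.1), 155 for Gbp5 (others 60.6 to 76) and 1475 for the class II list (others 462 to 528). AL sample 012 stood apart as the highest of its group, in normalised counts, at 130 for 5430431A17Rik (others 66.4 to 76.3), 9.0 for Angptl8 (others 3.52 to 3.79), 20 for Bmal1 (others 1.76 to 4.3), 25394 for the ER chaperone list (others 19959 to 20579) and 17377 for the vessel tone list (others 16519 to 16625). DR sample 021 stood apart as the highest of its group, in normalised counts, at 60.1 for Folh1 (others 23.1 to 33). DR sample 021 stood apart as the lowest of its group, in normalised counts, at 2393 for Calr (others 2670 to 2780) and 13316 for the collagen processing list (others 16021 to 16641). DR sample 007 stood apart as the highest of its group, in normalised counts, at 1871 for Pdia3 (others 1580 to 1653) and 89.5 for Ncald (others 68.9 to 73.6). DR sample 010 stood apart as the highest of its group, in normalised counts, at 721 for Dpep1 (others 476 to 544) and 250826 for the contractile list (others 194957 to 210179). DR sample 017 stood apart as the highest of its group, in normalised counts, at 33.3 for Irf7 (others 6.26 to 13.5), 0.666 for Cd3e (others 0 to 0), 2.66 for Ms4a1 (others 0 to 0.626) and 7710 for the immediate early list (others 6347 to 6647). AL sample 020 stood apart as the highest of its group, in normalised counts, at 31.8 for Pla2g2d (others 14 to 15.6). AL sample 012 stood apart as the lowest of its group, in normalised counts, at 794 for Ccnd2 (others 979 to 994).

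The diet effect differed between genotypes by the interaction test in 12 genes, as differences of log2 fold changes, WT minus Ercc1Δ/-. Above 0 were Spp1 at 3.87 (edgeR adjusted p = 0.000651), Lgals3 at 1.84 (edgeR adjusted p = 0.000651), Timp1 at 1.6 (edgeR adjusted p = 0.0343), Mgp at 0.79 (edgeR adjusted p = 0.0343) and Celf4 at 1.65 (edgeR adjusted p = 0.0446). Below 0 were Plvap at -1.41 (edgeR adjusted p = 0.00918), Gm830 at -1.6 (edgeR adjusted p = 0.0332), Cgnl1 at -1.03 (edgeR adjusted p = 0.0343), Col6a6 at -1.44 (edgeR adjusted p = 0.0343), Gbp4 at -2.7 (edgeR adjusted p = 0.0374), Garre1 at -0.92 (edgeR adjusted p = 0.0424) and Nlrc5 at -2.56 (edgeR adjusted p = 0.0484).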

How the results depend on the processing

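The direction of all 161 calls was the same under every alternative run, females alone not counted, while their number was not. The runs reuse samples in which the 161 were called, so a kept direction was likely in advance and shows little. Against 161 calls in WT, 310 were made with no filter on low counts, 103 with sample 003 added, 55 with no sex term, 66 with all 28 samples in the fit, 17 in males alone and 36 with the 1.2-fold limit inside the test. A fit of the 9 WT samples alone gave 159 (122 of them among the 161), and the same fit in libraries thinned to 1 depth gave 95 (68 of them). In females alone, an alternative chosen after seeing the data, 530 were called, with 018 the only AL library and assumed to vary like the other groups, so that the count says nothing of stability. The share of higher genes was 26.7% of the 161 and 65.5% in females alone. Leaving out 1 library gave 46 (without 018) to 204 calls (without 012). DESeq2 gave 228, of which 159 were among the 161. For the interaction, 12 genes became 43 with DESeq2, 3 with sample 003 added, and 3 to 17 with 1 library left out. In Ercc1Δ/-, 203 calls became 348 with DESeq2, chosen after seeing the data. The cause of these shifts was not tested. No paired analysis was possible because each mouse gave 1 sample and no replicate number is shared between groups. Depth limits genes of few counts such as Jaml, Ciita and Ccr2.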
